A study of Homo sapiens with 8 samples.

Results

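The genes described here are 10 antiviral effector genes of the interferon system: IFIT1, IFIT2, IFIT3 and IFIT5, MX1 and MX2, IFITM1, IFITM2 and IFITM3, and BST2. They were taken by symbol through their Ensembl identifiers and are 10 of 60675 genes listed in the count tables. RNA was sequenced from the established pancreatic cancer line Panc10.05 (human) and from a derivative with acquired resistance to indisulam, in 8 libraries that form 4 groups of 2. Indisulam is a sulfonamide that brings the splicing factor RBM39 to a ubiquitin ligase, which leads to RBM39 degradation. The parental untreated cells had no drug, and the parental indisulam cells had 2 µM for 18 h. The resistant line had been raised in stepwise higher doses, and no source used here says whether it is 1 clone. The resistant indisulam cells were held in 2 µM continuously, and the resistant untreated cells had been off the drug for 1 week, so they were not naive to it. No genetic change was made in any group. Some free-text notes in the labels name A549, but Panc10.05 is given in every title and was used. The study calls the paired libraries technical replicates, so the p-values measure the spread between libraries and not between separate cultures.

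Interferons are secreted proteins that bind cell surface receptors and, through the kinases JAK1 and TYK2, activate factors that include STAT2 and IRF9 and bind interferon-stimulated response elements in the promoters of many genes. The genes described here are among the best known of these. IFIT proteins bind foreign RNA, and IFIT1 recognises RNA whose cap lacks a methyl mark. MX proteins are large GTPases that trap viral components, IFITM proteins hinder fusion of viral and cell membranes, and BST2 (tetherin) holds budding particles to the cell surface. Such genes can be active in tumour cells without infection.

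To show what the upstream sequences of these genes share, promoters of 300 bases (250 before and 50 from the start site) were taken from RefSeq on GRCh38.p14. Entries were found for 7 of the 10 genes (10 entries). The genes without one were IFIT2, MX2 and IFITM2. The core of the response element was searched as GAAANNGAAA on both strands (its reverse complement reads TTTCNNTTTC). It was present in 9 of the 10 entries and in all 7 genes with an entry, against 3.57% of all 35116 promoter entries and 4.38% of 27305 genes. One stretch per gene is given here, 5′ to 3′ on the strand of the gene, with the matches to GAAANNGAAA or its reverse complement in capitals.
IFIT1, chr10:89392482-89392554, plus strand: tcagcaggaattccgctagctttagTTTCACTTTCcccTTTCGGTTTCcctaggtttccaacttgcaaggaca
IFIT3, chr10:89327816-89327909, plus strand: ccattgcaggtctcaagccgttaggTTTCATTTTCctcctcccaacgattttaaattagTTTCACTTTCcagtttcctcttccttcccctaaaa
IFIT5, chr10:89414498-89414597, plus strand: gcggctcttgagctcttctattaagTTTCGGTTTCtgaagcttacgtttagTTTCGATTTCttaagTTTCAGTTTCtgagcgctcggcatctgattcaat
MX1, chr21:41420544-41420587, plus strand: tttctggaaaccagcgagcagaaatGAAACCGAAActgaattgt
IFITM1, chr11:313975-314068, plus strand: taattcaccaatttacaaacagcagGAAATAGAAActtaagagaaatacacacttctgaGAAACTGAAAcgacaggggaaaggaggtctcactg
IFITM3, chr11:320861-320937, minus strand: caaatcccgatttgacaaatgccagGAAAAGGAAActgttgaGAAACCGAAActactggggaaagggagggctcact
BST2, chr19:17405720-17405785, minus strand: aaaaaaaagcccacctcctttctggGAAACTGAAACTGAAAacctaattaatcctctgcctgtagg
The first bases of the matches lay between positions -156 and 12 from the start site in these 7 entries. IFIT5 held 3 matches in its entry, MX1 held 1 in the entry shown, and the other genes shown held 2. In BST2 the matches overlapped. A match describes letters in a window, and binding was not measured.

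Each library held 65266253 to 108002436 reads assigned to genes. Paired libraries correlated with r of 0.9964 to 0.998 across genes, and the chi-square of their counts averaged 2.04 to 5.87 per gene, more than sampling gives. The 7 epithelial and ductal markers checked (such as KRT19 and EPCAM) were all read, and their summed level was 6329 to 6517 TMM-scaled counts at a common library size (CPM) in parental and 10817 to 12248 CPM in resistant libraries. By the rule given below, all 7 were called higher in resistant untreated than in parental untreated cells, as were 30.3% of all genes. Their median log2 fold change was 0.74, and 1 of the 7 was past 1 log2 unit, against 4.77% of all genes. The part of this difference in the results below was not tested. The immune markers PTPRC and CD3E had no read in any library, and the summed level of the 7 immune markers was 0.247 to 0.308 CPM in the other groups and 0.406 to 0.445 CPM in resistant indisulam libraries. The 7 stromal and endothelial markers summed to 1.57 to 2.09 and 4.25 to 4.35 CPM in the same libraries, with DCN at 0 throughout, and the 5 acinar and endocrine markers to at most 0.0462 CPM. In bulk RNA, fewer cells expressing a gene and less RNA of it per cell cannot be told apart.

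To learn how the line that acquired resistance differs when both lines are off the drug, resistant untreated cells were compared with parental untreated cells. All 10 genes were higher in the resistant cells, from 1.33-fold for IFITM2 to 50.7-fold for MX1 and more for MX2. Genes are called here when the p of the quasi-likelihood test of edgeR, adjusted by Benjamini-Hochberg over the 16661 genes tested, is under 0.05, and that rule called 60.1% of all genes (30.3% as higher). With a test against a change of 1 log2 unit, which called 4.77% of all genes as higher, 9 of the 10 passed, all but IFITM2. The median log2 fold change of the 10 genes was 2.19, against -0.02 over all genes tested. MX2 reached the filter on low counts only through its reads in resistant cells, and without it 9 of 9 genes were higher, 8 of them past 1 log2 unit, with a median of 1.91.

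Among the IFIT genes, IFIT1 (ENSG00000185745) changed most. Its level was 7.86 and 7.26 CPM in parental untreated and 81.8 and 79.2 CPM in resistant untreated libraries (log2 fold change 3.41 ± 0.044 SE, adjusted p 5.3e-26). IFIT2 and IFIT3, whose proteins form complexes with IFIT1, were less far apart between the lines. IFIT2 rose from 26.1 and 24.3 to 96.4 and 92.7 CPM (log2 fold change 1.91 ± 0.037 SE, adjusted p 1.6e-22). IFIT3 rose from 16 and 14.9 to 88.8 and 83.8 CPM (log2 fold change 2.48 ± 0.051 SE, adjusted p 3.8e-16). IFIT5, which binds RNA with a triphosphate end, had the smallest rise of the 4, from 14.7 and 15 to 43.2 and 45.6 CPM (log2 fold change 1.58, SE 0.042, adjusted p 8.8e-20). In each of the 4 genes both resistant untreated libraries lay above all other libraries, as they did in 14.8% of all genes.

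The MX genes were nearly silent in parental cells and clearly read in resistant cells. MX1 (MxA, which acts on influenza viruses among others) had 56 and 43 reads in parental untreated libraries, or 0.512 and 0.402 CPM, and 1702 and 1534 reads, or 23 and 23.6 CPM, in resistant untreated libraries. The log2 fold change was 5.67 (SE 0.096, adjusted p 9.1e-24). MX2 (MxB, a GTPase at the nuclear envelope) had 3 and 0 reads in parental untreated libraries against 752 and 732 in resistant untreated libraries. A count of 0 in that library allows up to 3 reads, or 0.0281 CPM. The ratio of the pooled MX2 levels was 770, with an exact Poisson interval of 263 to 3740 (95%, counting error only), while its fitted log2 fold change of 9.44 depends on the prior count and is no bound.

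The IFITM genes differed widely among themselves. IFITM1, which sits mainly at the cell surface, rose from 1.44 and 1.43 to 54.9 and 52.6 CPM (log2 fold change 5.22 ± 0.09 SE, adjusted p 2.6e-15). IFITM3, which acts in endosomes, was already high in parental untreated cells at 236 and 236 CPM and rose to 640 and 659 CPM (log2 fold change 1.46, SE 0.03, adjusted p 5.2e-22). IFITM2, its close paralogue, moved least of the 10 genes, from 70.6 and 71.8 to 95.9 and 94 CPM (log2 fold change 0.41, SE 0.032, adjusted p 4.6e-11). BST2 rose from 41.4 and 41.9 to 152 and 148 CPM (log2 fold change 1.85 ± 0.033 SE, adjusted p 2.5e-23). Untreated libraries of the lines did not overlap in any of these genes, and 38.6% of all genes were higher without overlap in this comparison.

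**Figure D1:**
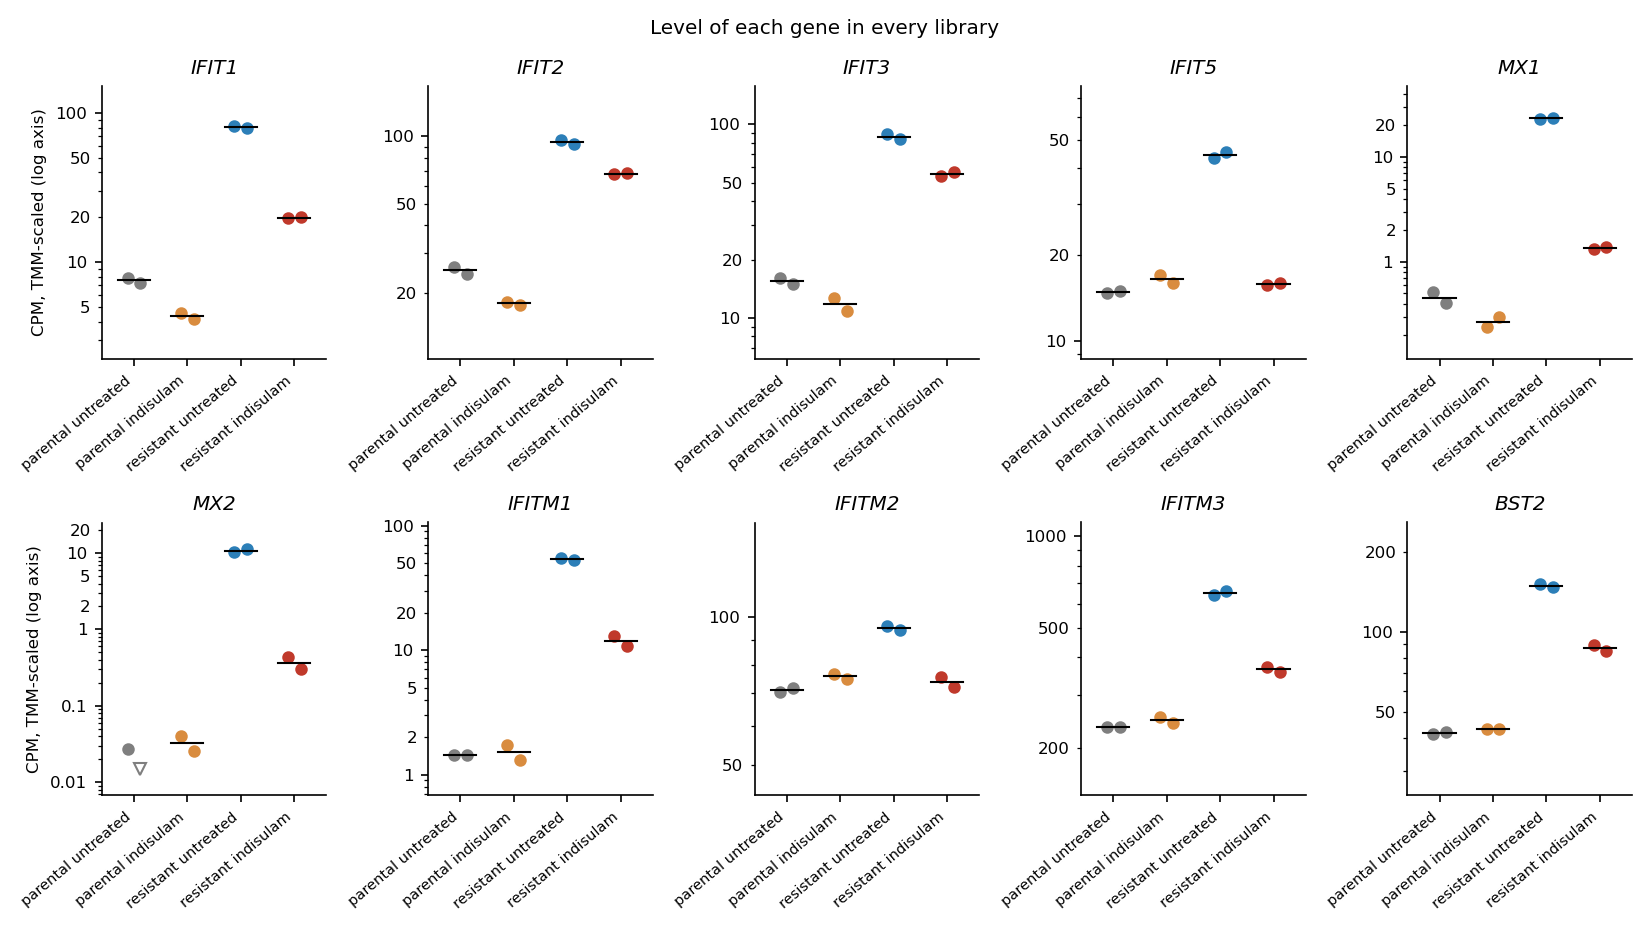
Level of the 10 genes in every library, in CPM on a log axis that differs between panels. Points are libraries, bars are means of 2, and the open triangle in the MX2 panel marks the library with 0 reads, drawn at an arbitrary height. Both resistant untreated libraries are the highest in each panel, as they are in 14.8% of all genes. In IFIT5 and IFITM2 the other 3 groups lie close together.

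Per kilobase of the canonical transcript in GENCODE 44, IFITM3 was the highest of the 10 genes in every group (387 and 406 CPM per kilobase in parental cells without and with indisulam, and 1063 and 595 in resistant cells) and MX2 the lowest (0.00402, 0.00965, 3.14 and 0.107). IFITM1 moved from place 7 of 10 in parental untreated cells (2.15 CPM per kilobase) to place 4 in resistant untreated cells (80.4). It then lay above IFIT2 and IFIT3 (27.9 and 36.1 CPM per kilobase), which in parental untreated cells had lain above it (7.43 and 6.47).

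To compare the resistant line on and off the drug, resistant indisulam cells were set against resistant untreated cells. The latter had been withdrawn from the drug for 1 week. A fall on the drug here can equally be read as a rise after withdrawal, and these cannot be told apart. All 10 genes were lower on the drug, where the rule called 50.7% of all genes (25.8% as lower). With the test against 1 log2 unit, 5 of the 10 passed as lower (IFIT1, IFIT5, MX1, MX2 and IFITM1), against 0.45% of all genes. The median log2 fold change was -1.16, against 0.01 over all genes, and without MX2 it was -0.84 with 9 of 9 genes lower, 4 of them past 1 log2 unit.

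Members of the same family fell by different amounts. IFIT1 was at 19.7 and 20 CPM on the drug, a fall by 2.02 log2 units (SE 0.04, adjusted p 1.7e-21), and IFIT5 was at 15.7 and 15.9 CPM, a fall by 1.49 (SE 0.044, adjusted p 3.1e-18). IFIT2 was at 67.8 and 68.3 CPM, a fall by 0.47 (SE 0.035, adjusted p 8.7e-11), and IFIT3 was at 54.1 and 56.6 CPM, a fall by 0.64 (SE 0.046, adjusted p 1.1e-08). The IFIT genes thus formed a pair that lost most of its level and a pair that kept more than it lost.

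Both MX genes fell to a small part of their level off the drug. MX1 had 90 and 133 reads on the drug, or 1.33 and 1.38 CPM, and fell by 4.09 log2 units (SE 0.084, adjusted p 2.8e-21). MX2 had 29 reads in each library, or 0.43 and 0.302 CPM, and fell by 4.91 log2 units (SE 0.15, adjusted p 2.7e-17), the lowest value of all 16661 genes in this fit. The ratio of its pooled levels was 0.0332 (95% Poisson interval 0.0251 to 0.0432).

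IFITM1 was at 13 and 10.8 CPM on the drug and fell by 2.19 log2 units (SE 0.067, adjusted p 7e-12). IFITM3 was at 370 and 358 CPM and fell by 0.84 (SE 0.03, adjusted p 1.3e-16), and IFITM2 was at 75.7 and 72.3 CPM and fell by 0.36 (SE 0.032, adjusted p 1.9e-09). BST2 was at 89.8 and 84.9 CPM and fell by 0.78 (SE 0.032, adjusted p 1.5e-15). Groups on and off the drug did not overlap in any of the 10 genes of the resistant line, and 35.9% of all genes were lower on the drug without overlap.

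**Figure D2:**
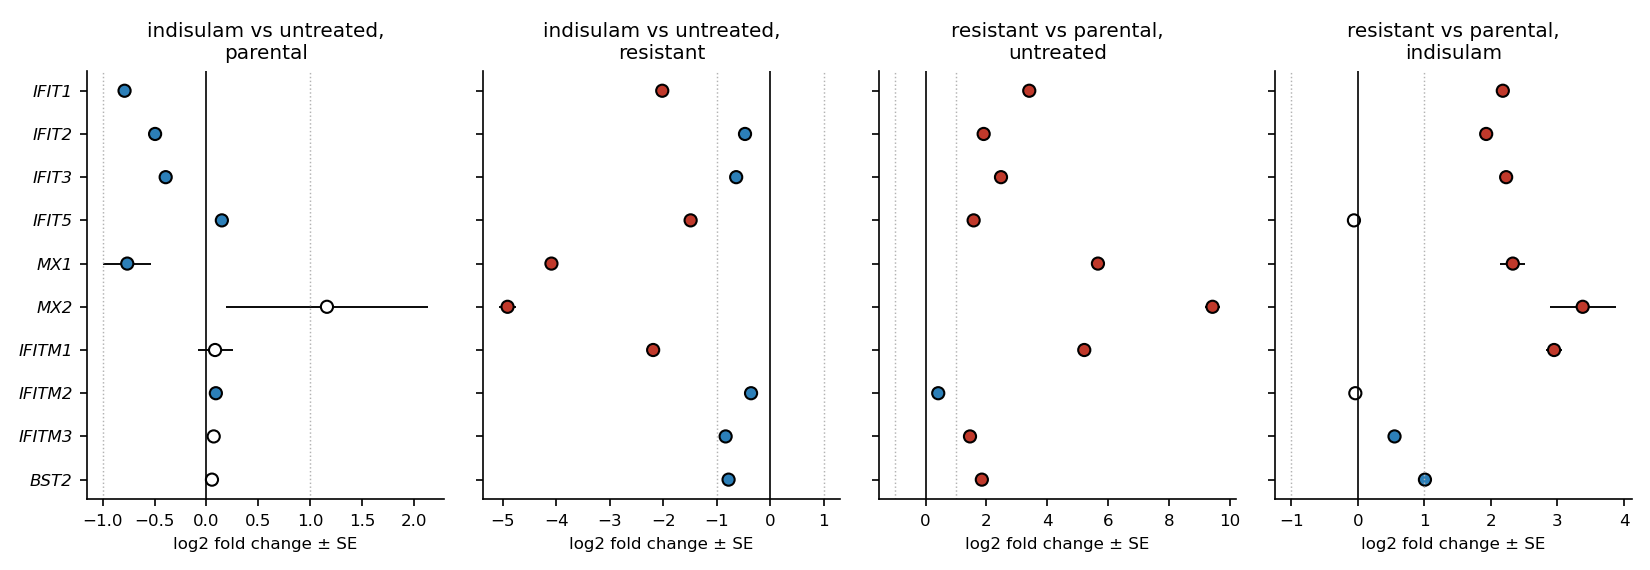
Log2 fold change with its SE for the 10 genes in 4 comparisons, with separate horizontal scales and dotted lines at 1 log2 unit either side of 0. White points are not called, blue points are called, and red points also pass the test against 1 log2 unit. All 10 genes lie left of 0 for the drug in the resistant line and right of 0 for the resistant line off the drug.

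The same comparison in parental cells, which had the drug for 18 h, gave small changes in both directions. Of the 10 genes, 4 were lower (IFIT1, IFIT2, IFIT3 and MX1) and 2 higher (IFIT5 and IFITM2), where the rule called 58.2% of all genes (26.6% as lower and 31.6% as higher). None passed the test against 1 log2 unit, which 0.534% of all genes passed (edgeR glmTreat, 0 of the 10 also at an unadjusted p under 0.05 and 0 with DESeq2). The median log2 fold change was 0.06, against 0.01 over all genes.

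IFIT1 fell to 4.58 and 4.18 CPM, by 0.79 log2 units (SE 0.066, adjusted p 8.3e-10). IFIT2 fell to 18.2 and 17.6 CPM, by 0.49 (SE 0.044, adjusted p 1.7e-09), and IFIT3 to 12.6 and 10.9 CPM, by 0.39 (SE 0.063, adjusted p 6.4e-05). MX1 had 18 and 23 reads, or 0.24 and 0.297 CPM, and fell by 0.76 (SE 0.23, adjusted p 0.0068). The MX1 call rests on few reads, and it was lost without parental untreated replicate 1 (-0.58, adjusted p 0.118) and without parental indisulam replicate 1 (-0.64, adjusted p 0.081).

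IFIT5 was at 17 and 15.9 CPM (log2 fold change 0.15, SE 0.047, adjusted p 0.0099) and IFITM2 at 76.8 and 74.8 CPM (0.09, SE 0.032, adjusted p 0.018). These calls were lost in 6 and 12 of 15 alternative settings. MX2 had 3 and 2 reads (ratio of pooled levels 2.37, Poisson interval 0.46 to 15.2). IFITM1 at 1.73 and 1.32 CPM (0.08, SE 0.17), IFITM3 at 254 and 242 CPM (0.07, SE 0.03) and BST2 at 43.2 and 43.3 CPM (0.05, SE 0.035) were not called, with adjusted p of 0.705, 0.053 and 0.207. IFITM3 was called with DESeq2 (0.08, adjusted p 0.0462 by its Wald test), and the direction in IFITM1 and BST2 turned in some settings.

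The responses of the lines were compared by their difference, with the limit that exposure also differed (18 h against continuous culture and a 1 week holiday). The response was lower in the resistant line for 9 of the 10 genes, where the rule called 50.1% of all genes (27.5% as lower). With the test against 1 log2 unit, 4 of the 10 passed (IFIT5, MX1, MX2 and IFITM1), against 0.24% of all genes as lower. Without MX2, 8 of 9 genes were lower and 3 past 1 log2 unit. IFIT2 was the exception. It fell by 0.49 log2 units in parental and 0.47 in resistant cells, with a difference of 0.02 (SE 0.056, adjusted p 0.791). The difference in IFIT3 was -0.25 (SE 0.079, adjusted p 0.016), and this call was lost in 6 of 15 settings.

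**Figure D3:**
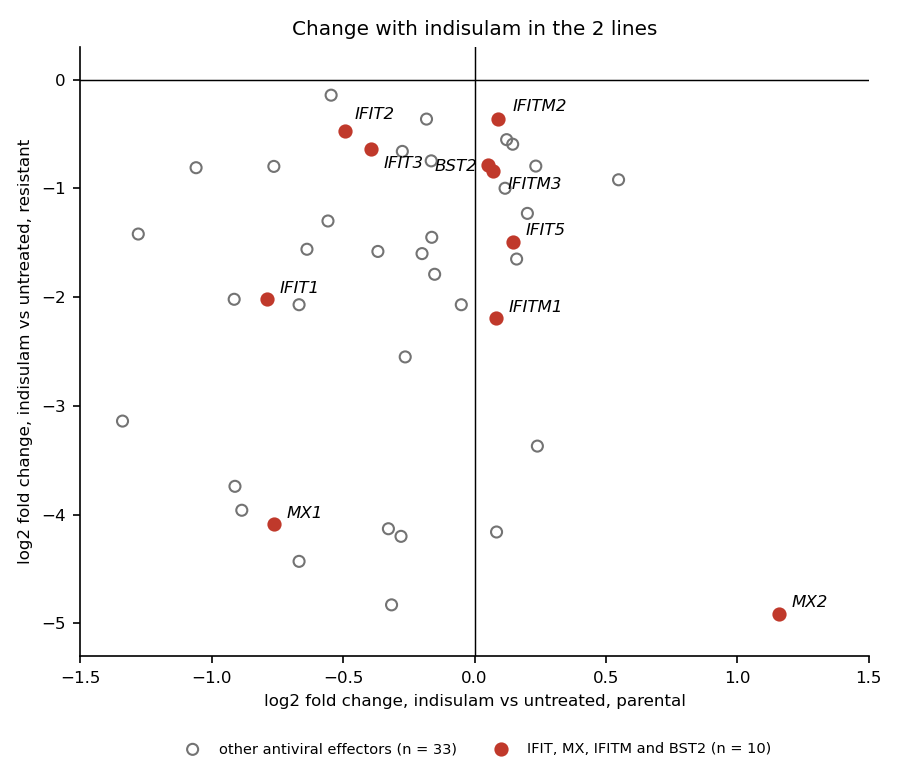
Log2 fold change with indisulam in parental cells (horizontal axis) and in resistant cells (vertical axis), which share no library. Filled points are the 10 genes and open points are 33 other antiviral effector genes. IFIT2 lies near -0.5 on both axes, whereas MX1, at -0.76 and -4.09, and MX2, at 1.16 from 3 and 5 pooled parental reads and -4.91, lie far below.

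To see where the resistant line stands while on the drug, resistant indisulam cells were set beside both parental groups, noting that these comparisons share libraries with those above. Against parental cells on the drug 8 of the 10 genes were higher, where the rule called 69.5% of all genes (34.6% as higher), and 6 were past 1 log2 unit, against 6.99%. Without MX2, 7 of 9 were higher and 5 past 1 log2 unit. Log2 fold changes ranged from 0.55 for IFITM3 to 2.95 (SE 0.12) for IFITM1 among those with ample reads. MX2 had a ratio of pooled levels of 10.8 (Poisson interval 4.37 to 34.5). IFIT5 (-0.06, SE 0.049, adjusted p 0.305) and IFITM2 (-0.04, SE 0.032, adjusted p 0.33) were not called, and both changed sign in some settings.

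Against parental untreated cells 8 of the 10 genes were higher, where the rule called 64.8% of all genes (32.2% as higher), and 6 were past 1 log2 unit, against 5.89%. These counts were also 7 of 9 and 5 without MX2. IFITM1 was 8.2-fold higher, IFIT3 3.58-fold, MX1 2.97-fold, IFIT2 2.7-fold, IFIT1 2.62-fold, BST2 2.09-fold and IFITM3 1.54-fold. MX2 had a ratio of 25.6 (Poisson interval 8.33 to 128). IFIT5 (log2 fold change 0.09, SE 0.047, adjusted p 0.0945) and IFITM2 (0.05, SE 0.032, adjusted p 0.14) were not called.

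The gain of the resistant line over parental untreated cells was compared on and off the drug, as a description in CPM. The share called kept is the gain on the drug as a percentage of that off it, and no order in time is meant. IFIT2 kept 61.8% ± 0.594 of its gain (SD, n = 2 libraries) and IFIT3 kept 56.3% ± 2.51. BST2 kept 42.2% ± 3.2 and IFITM3 kept 30.9% ± 2.15. IFITM1 and IFIT1 kept 20% ± 2.88 and 16.8% ± 0.259. MX1 (3.95% ± 0.149), MX2 (3.29% ± 0.85) and IFIT5 (3.22% ± 0.568) kept little, and IFITM2, with a small gain, kept 11.8% ± 10.4. These shares depend on the scale. In log2 units over parental untreated cells MX1 was at 1.57 on the drug and 5.67 off it, and IFIT5 at 0.09 and 1.58. The pooled ratio of MX2 was 25.6 on the drug and 770 off it. The libraries of IFIT2 and IFIT3 did not overlap with those of any other gene on this scale, and those of MX1, MX2 and IFIT5 lay together between 2.69% and 4.05%. The SD and these ranges cover the resistant indisulam libraries only, with the other groups held at their means.

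**Figure D4:**
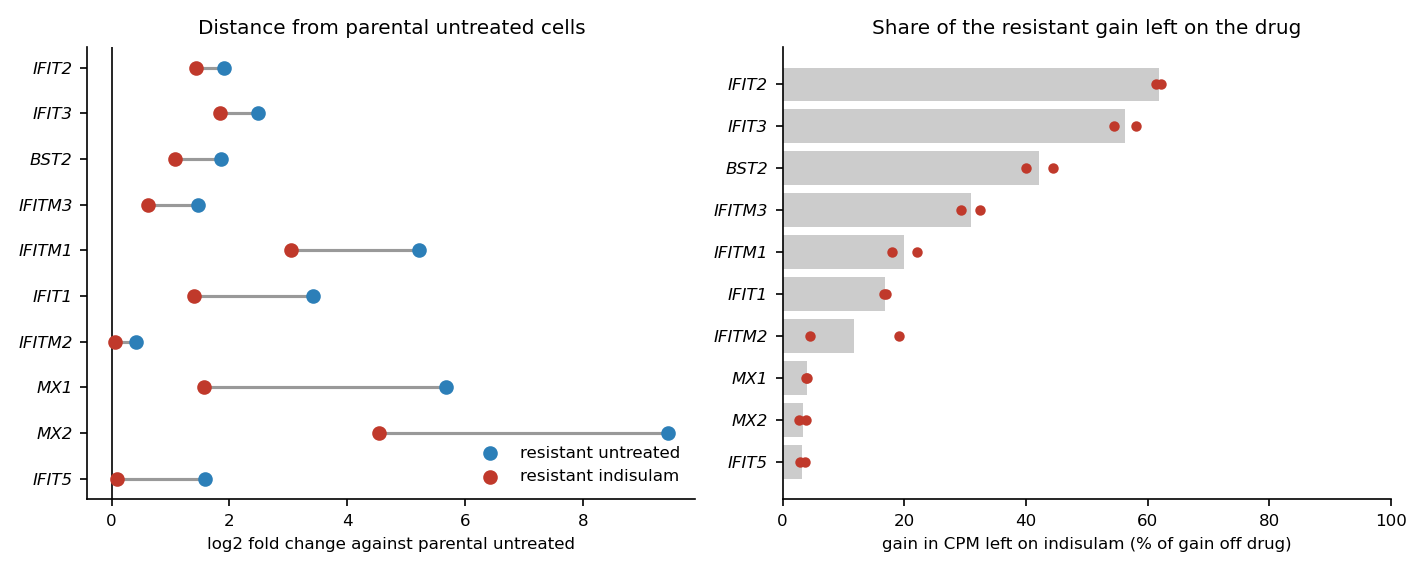
Left, log2 fold change against parental untreated cells for the 10 genes off the drug (blue) and on it (red). Right, the gain in CPM left on indisulam as a percentage of the gain off the drug, with bars for the mean and points for the 2 libraries. IFIT2 and IFIT3 keep over 50% of the gain, while IFIT5, MX1 and MX2 keep under 5%.

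These values give 3 orders of the groups. In IFIT1, IFIT2, IFIT3 and MX1 the order from high to low was resistant untreated, resistant indisulam, parental untreated and parental indisulam. Each pair of neighbours was called apart, where the rule called 50.7%, 64.8% and 58.2% of all genes. Between the parental groups 6 of the 10 genes were called, near that last share, so sorting the genes by this call is a description only. The call between the parental groups in MX1 rests on few reads and was lost in 2 of 15 settings. In IFITM1, IFITM3, BST2 and MX2 the resistant groups stood in the same order above the parental groups, which were not called apart in the main fit. In some settings IFITM3 was called apart, and MX2 had few parental reads. In IFIT5 and IFITM2 resistant untreated cells stood above the other 3 groups, whose calls against each other were absent or lost in some settings.

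The 4 IFIT genes lie in 1 cluster on the plus strand of chromosome 10 (GENCODE 44, GRCh38): IFIT2 at chr10:89283694-89309271, IFIT3 at chr10:89327307-89377473, IFIT1 at chr10:89392546-89406487 and IFIT5 at chr10:89414568-89421605. Ratios of reads between them within a library do not depend on library scaling. IFIT1 had 0.301 and 0.299 reads per IFIT2 read in parental untreated libraries and 0.251 and 0.238 in parental indisulam libraries. This ratio was 0.849 and 0.854 in resistant libraries off the drug and 0.291 and 0.292 on it, so on the drug it lay next to the parental untreated value although both genes were higher. IFIT5 per IFIT2 was 0.562 and 0.62 in parental untreated and 0.935 and 0.905 in parental indisulam libraries. It was 0.449 and 0.492 in resistant libraries off the drug and 0.232 and 0.233 on it, so the drug groups were the highest in one line and the lowest in the other. IFIT3 per IFIT2 ranged less, from 0.613 to 0.921 over all libraries. These ratios are given as a description, and their differences were not tested.

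**Figure D5:**
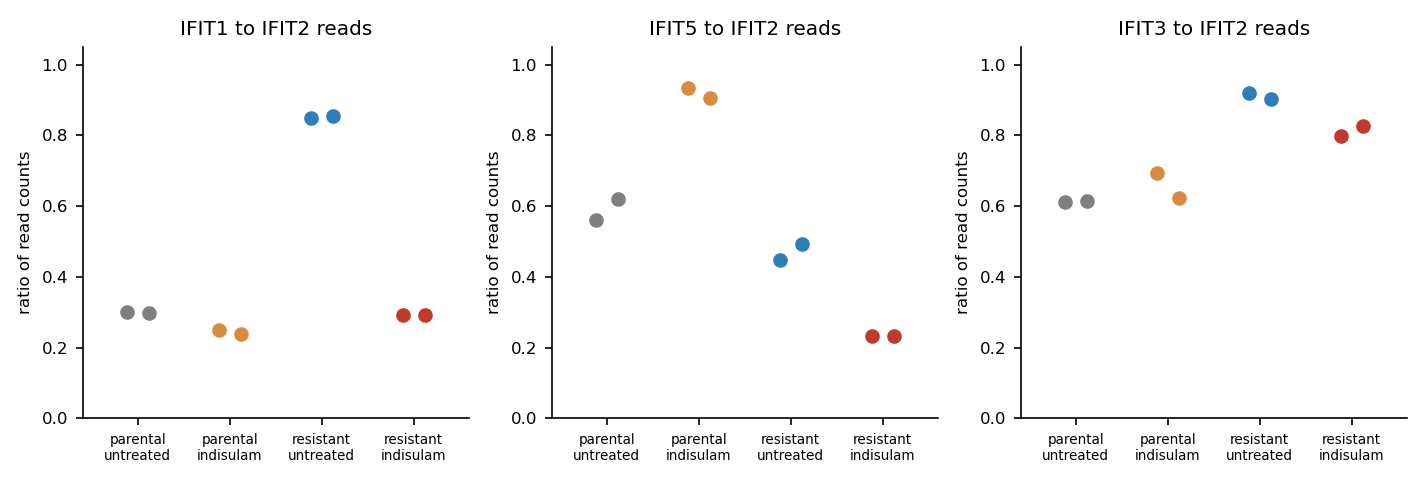
Ratio of read counts of IFIT1, IFIT5 and IFIT3 to those of IFIT2 in each library, by group, on axes that start at 0. IFIT1 per IFIT2 is near 0.85 in resistant untreated libraries and 0.238 to 0.301 in the others, and IFIT5 per IFIT2 is lowest in resistant indisulam libraries.

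The other loci were MX2 at chr21:41361999-41409393 and MX1 at chr21:41420020-41470071, both on the plus strand, and BST2 at chr19:17402939-17405630 on the minus strand. On chromosome 11 lie IFITM2 at chr11:303655-309397 and IFITM1 at chr11:310041-315272 on the plus strand and IFITM3 at chr11:319676-329475 on the minus strand. There were 2.26 and 2.1 MX1 reads per MX2 read in resistant untreated libraries and 3.1 and 4.59 on the drug. BISPR, a noncoding RNA read divergently from the BST2 promoter, also rose in the resistant line off the drug (log2 fold change 1.74, SE 0.072, adjusted p 3.9e-16) and fell on it (by 1.65, SE 0.074, adjusted p 1e-14). Unlike BST2 it also fell in parental cells on the drug, by 1.02 log2 units (SE 0.097, adjusted p 5.5e-09). There were 11 and 11.4 BST2 reads per BISPR read in parental untreated and 12.2 and 12 in resistant untreated libraries, against 25.3 and 22.2 in parental and 22 and 22.2 in resistant libraries on the drug.

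Genes beside these loci were read as a check on the neighbourhood. Of the 16 nearest tested protein-coding genes, only SLC27A1, a fatty acid transporter gene near BST2, was past 1 log2 unit higher in resistant untreated cells (2.35 log2 units, SE 0.11, adjusted p 8.9e-15). LIPA, on the opposite strand across IFIT1, IFIT2 and IFIT3, was lower there (-0.61 log2 units, SE 0.035, adjusted p 1.6e-13), while the IFIT genes were higher. LIPA exons covered at most 1.86% of the exon bases of an IFIT gene. The strand setting of the counting was not given in the sources used here, and whether reads of LIPA entered the IFIT counts there was not tested. A noncoding gene on the strand of IFIT2 covered 12.1% of its exon bases and held 0.87% of the reads of the pair, and one opposite IFITM1 covered 10.6% and held 2.18%. Other overlapping genes in the count tables held at most 0.0624%. IFITM1 and IFITM3 share sequence: 7.38% of all 100-base stretches of the IFITM1 transcript also occur in IFITM3 transcripts, and 8.2% of those of IFITM3 occur in IFITM1 transcripts. The counts of both are uncertain there, and how many reads of IFITM3 (236 CPM in parental untreated cells) were counted for IFITM1 (1.44 and 1.43 CPM) was not tested. Of the other relatives, IFIT1B and IFITM5 had at most 2 reads in a library, and IFITM10 was at 0.0387 to 0.218 CPM.

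The rest of the interferon pathway was read from lists. Of 8 interferon genes only IFNE, an epithelial type I interferon, passed the filter, and it was lower in resistant untreated than parental untreated cells (46 and 49 against 229 and 236 reads, log2 fold change -1.65, SE 0.15, adjusted p 1.4e-09). IFNB1 had 0 and 0 reads in parental cells off the drug and 0 and 1 on it, and 9 and 5 reads in resistant cells off the drug and 2 and 5 on it. IFNL1 had 2 and 1, 0 and 0, 12 and 8, and 5 and 8 reads in the same order. IFNK had at most 2 reads and IFNL3 at most 1 in a library, and IFNA1, IFNG and IFNL2 had none. These 7 genes did not pass the filter on low counts, and no test is given for them.

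Of 12 receptor and signalling genes, 8 were higher and 3 lower in resistant untreated than in parental untreated cells, where 60.1% of all genes were called (30.3% as higher). Past 1 log2 unit were 4 of the 12, against 4.77% of all genes as higher. IRF9, a DNA-binding part of the complex on the response element, was higher by 2.38 log2 units (SE 0.13, adjusted p 7.5e-14) and fell by 1.12 on the drug in the resistant line (SE 0.12, adjusted p 3e-08). TYK2 and JAK2 were lower in the resistant line off the drug, with log2 fold changes of -0.75 and -0.54. On the drug in the resistant line 4 of the 12 were higher and 5 lower, where 50.7% of all genes were called.

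Of 13 sensing genes tested, 8 were higher and 4 lower in the resistant line off the drug, beside the same 60.1% of all genes called (30.3% as higher). The higher genes include ZBP1, a sensor with 0 reads in each parental library against 50 and 55 in resistant untreated libraries. ZBP1 passed the filter only through its reads in resistant cells, so its direction was fixed, and no count without it is given. The largest rise among the other sensing genes was in DHX58 (log2 fold change 2.75, SE 0.14, adjusted p 3.7e-14). On the drug in the resistant line 4 were higher and 6 lower (50.7% of all genes were called), among the latter IFIH1, the RNA sensor MDA5, which fell by 1.78 log2 units (SE 0.039, adjusted p 9e-21). USP18, which dampens interferon receptor signalling, was higher by 4.58 log2 units off the drug (SE 0.07, adjusted p 1.3e-24) and fell by 2.45 on it (SE 0.058, adjusted p 3.7e-20). SOCS3, another brake on cytokine receptors, went the other way in both comparisons, with log2 fold changes of -0.37 and 0.28.

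Of 33 other antiviral effectors, 33 were higher in the resistant line off the drug, against 30.3% of all genes, and 28 were past 1 log2 unit, against 4.77% (median 3.07). The list was chosen with earlier results of these data known. Its counts and medians include genes with few parental reads, which passed the filter through their reads in resistant cells. Among these are CMPK2, given below, RSAD2 (11 and 11 parental untreated reads, 3 and 3 parental indisulam reads) and XAF1 (15 and 12, and 5 and 5). The direction of such genes off the drug was largely set by the filter, and no count without them is given. On the drug in that line 32 were lower, against 25.8% of all genes, and 22 were past 1 log2 unit, against 0.45% (median -1.58). In parental cells on the drug 18 were lower, against 26.6% of all genes, 4 higher, against 31.6%, and 11 not called (median -0.28). CMPK2, which passed the filter only through resistant cells (1 and 3 parental untreated reads against 743 and 618), and OAS1 (7.59, SE 0.086) had the highest log2 fold changes off the drug, and IFI6 and IFI44L the lowest on it, -4.83 (SE 0.06) and -4.43 (SE 0.066). The response element core was found in 18 of the 28 of these genes with a promoter entry (64.3%).

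The patterns of single genes were then matched over the 8 libraries by the root-mean-square difference of their centred log2 CPM profiles, among 16660 other genes and as a description. MX1 lay nearest IFI27 (0.278), IFI44L (0.294) and RSAD2 (0.413), and MX2 lay nearest OAS1 (0.52), CMPK2 (0.579) and XAF1 (0.682). IFIT1 lay nearest KLK8 (0.138), HERC6 (0.22) and OAS3 (0.266), and IFIT5 nearest EIF2AK2 (0.0959), DPYD (0.144) and SLFN5 (0.146). IFIT2 lay nearest SLFN13 (0.0714), PLXNA2 (0.0972) and PLXND1 (0.0983), and IFIT3 nearest SLC30A4-AS1 (0.0966), LTBP2 (0.109) and ENSG00000283178 (0.116). None of the genes nearest IFIT2 or IFIT3 was on the lists used here, and neither were those nearest the IFITM genes and BST2, given next. Absence from these lists does not place a gene outside the interferon system.

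IFITM1 lay nearest SORCS2 (0.242), TNFSF10 (0.288) and SLC15A3 (0.304), and IFITM2 nearest TIMP1 (0.0242), MCM4 (0.0254) and WARS1 (0.0272). IFITM3 lay nearest THBD (0.0521), FOXQ1 (0.0782) and PML (0.0795), and BST2 nearest SERPINA1 (0.0558), TNFSF15 (0.0889) and CYP2J2 (0.109). No member of the set was among the 3 nearest genes of another. The closest pairs within the set were IFITM3 with BST2 (0.215) and IFIT2 with IFIT3 (0.234).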

How the data were processed

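Stranded libraries of polyadenylated RNA were sequenced by the authors as paired-end reads, and the labels name HISAT2 2.2.1, HTSeq, Picard and GRCh38. The values used are the read counts per gene deposited by the authors, unnormalised, 1 table per library with 60675 Ensembl genes and 9 other lines. Those lines held 37.9% to 44.9% of reads (14.1% to 18.4% marked duplicate, 7.55% to 8.24% of low mapping quality, 3.9% to 4.58% ambiguous) and were left out. The strand setting and annotation release of the counting were not given in the sources used here. Of the identifiers, 60419 matched GENCODE 44.

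Counts were filtered with filterByExpr (minimum count 10), scaled by TMM and fitted with edgeR 4.0.16 in R 4.3.3 as 4 group means over 8 libraries (quasi-likelihood, robust, 4 residual degrees of freedom). All 10 genes passed the filter. The threshold was a Benjamini-Hochberg adjusted p under 0.05 over 16661 genes, and glmTreat tested against 1 log2 unit. SE is the log2 fold change divided by the root of F. CPM values use TMM-scaled library sizes. Intervals and floors (3 counts) cover counting error only. The members and lists were chosen with earlier results of these data known. The 10 genes were all named, and BISPR was named outside the rule that follows. From each list the text may name up to 2 called genes per direction, by size, and every interferon, and beside these the 3 nearest patterns and the 2 nearest neighbours on each side of a locus. Some genes that this rule names, and a second motif search, are not reported here, while the counts and sums over a list include all of its genes. Same-numbered libraries did not deviate together (correlations -0.058 to 0.0272), so no block was used. Alternatives were DESeq2 1.42.0 size factors and Wald test, library totals, other filters, thinning, the block and leaving out each library. The code was tested on simulated counts. Figures were drawn with matplotlib 3.10.9.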

Additional observations from a re-analysis of the deposited data

Results flagged for a closer look

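For 9 of the 10 genes the change with indisulam differed between the lines, lower in the resistant line each time. The test was of the difference itself (edgeR quasi-likelihood test, p adjusted over all genes), and it called 50.1% of all genes (27.5% as lower). Without MX2, which passed the filter only through its reads in resistant cells, the count was 8 of 9. The difference, resistant minus parental on the log2 scale, was -6.07 for MX2 (adjusted p 0.00018), which has 3 and 5 pooled parental reads, -3.33 for MX1 (6.3e-09), -2.27 for IFITM1 (4.8e-07) and -1.64 for IFIT5 (4.3e-15). It was -1.23 for IFIT1 (4.4e-11), -0.91 for IFITM3 (1e-13), -0.83 for BST2 (3.2e-12), -0.45 for IFITM2 (3.1e-08) and -0.25 for IFIT3 (0.016). Line and length of exposure cannot be told apart in these values.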

How the results depend on the processing

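Over 15 alternatives to each of 60 values, 855 of 900 values kept direction and side of the threshold, 26 lost a call, 7 gained one and 12 changed sign. Calls of the 10 genes for the drug in resistant cells and for the resistant line off the drug were kept in all 15. The sign changed for values near 0. BST2 in parental cells was -0.014 with library totals and -0.0039 with a mean CPM of at least 1. IFIT5 on the drug between lines was 0.031 and 0.022 in those settings and -0.079 to 0.013 with a library left out (highest without parental indisulam replicate 1). IFITM2 there was 0.052, 0.043, 0.0016 with thinning, and -0.066 to 0.00598 with a library left out (above 0 without parental indisulam replicate 1 or resistant indisulam replicate 2). IFITM1 in parental cells ranged from -0.15 (without parental indisulam replicate 1) to 0.25, and the difference in IFIT2 from -0.036 (without parental untreated replicate 1) to 0.073, with a library left out. MX2 in parental cells was called without parental untreated replicate 1 (4.46, adjusted p 0.049), which left a lone library with 0 reads. Library totals and no filter moved the median of all genes in the difference of responses to 0.125 and 0.154.

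Genes past 1 log2 unit in parental cells numbered 89, 30 by the DESeq2 Wald test, 141 with no filter and 59 to 140 with a library left out. In resistant cells they numbered 166, 83 by the Wald test and 94 with a mean CPM of at least 1. Off the drug they numbered 960, and 572 with that filter. On the drug between lines they numbered 1296, 813 and 761, and against parental untreated cells 1170, 770 and 642 (Wald test, then filter). For the difference they numbered 119, 53 by the Wald test and 83 to 225 with a library left out. Of the 10 genes 3 to 5 were called in parental cells with a library left out, 3 without parental indisulam replicate 1. The cause of these shifts was not tested.

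With the replicate number as a block 6, 10, 10, 8, 8 and 9 of the 10 genes were called in the comparisons for the drug in parental cells, the drug in resistant cells, the lines off and on the drug, resistant indisulam against parental untreated cells, and the difference, and the block changed no call of these genes. In the same order the main fit, without the block, called 58.2%, 50.7%, 60.1%, 69.5%, 64.8% and 50.1% of all genes. Depth limits MX2 in parental cells.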
